A study of Mus musculus with 10 samples.

Results

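The genes examined here move zinc and copper across membranes, carry copper inside the cell or buffer both metals. They were taken from the count table by symbol, as every Slc30a and Slc39a gene together with Slc31a1, Slc31a2, Atox1, Atp7a, Atp7b, Mt1, Mt2, Mt3, Mt4 and Mtf1. This gave 34 of the 24594 genes in the table, of which 10 belong to the Slc30a family and 14 to the Slc39a family. Enough counts for a test were present for 26 of the 34. The other 8 were Slc30a3, Slc30a8, Slc30a10, Slc39a2, Slc39a5, Slc39a12, Mt3 and Mt4, and their counts are given with their families.

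RNA-seq libraries had been made from luminal and from basal mammary epithelial cells of wild type C57BL/6J mice for which the labels name no treatment, with 5 libraries of each cell type. Luminal cells line the lumen of the ducts and include the cells that make milk, and basal cells form the outer, contractile layer. Both were obtained by fluorescence-activated sorting of dissociated glands on EpCAM and CD49f, and the labels do not separate luminal progenitors from mature luminal cells. The labels give neither an age nor a stage of pregnancy or lactation, and the study's methods give a range of ages for its mice in general. Nor do the labels state whether each library came from a mouse of its own, so p-values measure the spread between these libraries.

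Zinc leaves the cytosol through the ZnT proteins, encoded by the Slc30a genes, which export it from the cell or load it into vesicles and the Golgi. It enters the cytosol through the ZIP proteins, encoded by the Slc39a genes. Copper enters through CTR1, is handed by the chaperone ATOX1 to the pumps ATP7A and ATP7B, and leaves the cytosol through them. Metallothioneins are small cysteine-rich proteins that bind both metals, and the zinc-sensing transcription factor MTF1 drives their genes through short metal response elements. In the mammary gland these routes supply milk: mice without working Slc30a4 or Atp7b make milk poor in zinc or copper.

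The data bear on whether the routes differ between the cell types, and the promoters of the family give a view of the element that MTF1 reads. The 7-base core of the metal response element was searched as TGCACNC and TGCGCNC on both strands, in the 250 bases before the RefSeq start (GRCm38.p6). Read from the other strand, a match appears as GNGTGCA or GNGCGCA. The windows of 2 genes are shown 5′ to 3′ on the strand of the gene with the matches in capitals, Mt2 because it had the most matches among the metallothioneins and Slc30a4 for its part in milk zinc. The Mt2 window lies at chr8:94172368-94172617 on the plus strand and the Slc30a4 window at chr2:122702664-122702913 on the minus strand.
Mt2: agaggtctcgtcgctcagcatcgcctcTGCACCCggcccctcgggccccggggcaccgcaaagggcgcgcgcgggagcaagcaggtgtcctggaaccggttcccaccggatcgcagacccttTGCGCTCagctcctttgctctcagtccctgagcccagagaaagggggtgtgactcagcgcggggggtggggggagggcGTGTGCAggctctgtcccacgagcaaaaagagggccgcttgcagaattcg
Slc30a4: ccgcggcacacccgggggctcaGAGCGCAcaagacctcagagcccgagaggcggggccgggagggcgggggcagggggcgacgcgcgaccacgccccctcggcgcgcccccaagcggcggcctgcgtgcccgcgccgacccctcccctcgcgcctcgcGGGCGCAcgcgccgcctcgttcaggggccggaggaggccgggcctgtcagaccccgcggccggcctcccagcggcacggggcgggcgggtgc

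The Mt2 window held 3 matches and the Slc30a4 window 2. Among all 32851 RefSeq promoter windows of this length, 21.4% held at least 1 match, 5.17% at least 2 and 1.26% at least 3. The Mt1 and Slc30a1 windows held 1 match each, and those of Mtf1, Atox1, Slc31a1 and Slc30a7 held none. RefSeq gives models of Mt1 with different starts, and with the 50 bases after the start included the Mt1 window held 3 matches, against 1.97% of such longer windows with at least 3. A window was given for 30 of the 34 genes, and 17 of their 35 windows (48.6%) held at least 1 match. A match is a string of letters here and was not measured as a binding site.

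Library totals ran from 13203146 to 17998165 counts, and 3 counts, taken as the floor of detection, were worth 0.158 to 0.232 CPM, the count scaled to the normalized library total, depending on the library. Titles and cell type labels contradict each other in all 10 libraries, and the cell type label defined the groups. All 10 luminal markers, with a median log2 fold change of 5.21, and all 7 basal markers, with a median of -7.95, followed that label. Epidermal genes, a list chosen after the data were seen, were high in both libraries numbered 4. Without Lgals7, which made up most of the sum in the other basal libraries, they summed to 420 CPM in basal replicate 4 and 4.03 to 21.9 CPM in the other basal libraries. Luminal replicates 4 and 5 held 70 and 47.1 CPM, and the other luminal libraries 11 to 15 CPM. Coding transcripts shorter than 1000 bases deviated from the mean of their group by a median of 0.41 in luminal replicate 4, 0.30 in basal replicate 4 and -0.37 in luminal replicate 1 on the log2 scale. Summed markers of leukocytes were at 4.25 to 11.5 CPM in luminal and 12.2 to 34.4 CPM in basal libraries. Cd74 alone made the basal sum the higher one (20.7 against 2.62 CPM), whereas Cd52 and Lyz2 were higher in luminal cells and Ptprc and Tyrobp had means of at most 0.408 CPM. With offsets for GC content and transcript length, Cd52 fell from a log2 fold change of 2.03 to 1.16 and did not pass (edgeR adjusted p 0.0544). Lyz2 did not pass with these offsets and the replicate number as a block (1.39, 0.0509). Summed markers of endothelium were at 1.69 to 4.06 CPM in luminal and 6 to 13.1 CPM in basal libraries, and those of adipocytes at 0.611 to 2.21 and 3.95 to 8.88 CPM. Erythroid genes reached 3.37 to 16.8 CPM in luminal and at most 0.188 CPM in basal libraries, and fibroblast genes 22.1 to 113 and 24.8 to 41.5 CPM. The part of these cells in the results was not tested, and in sorted bulk samples fewer cells of a type and less RNA per cell cannot be told apart.

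Of the 26 genes tested, 18 (69.2%) passed the quasi-likelihood test of edgeR between the cell types (adjusted p under 0.05). Over all 14609 genes tested the share was 64.8%, so the members' share lay close to the background. Luminal cells had the higher level of 7 members and basal cells of 11, and over all genes these shares were 33.6% and 31.2%. The balance over all genes moved with the scaling, to 5705 luminal against 3705 basal calls with library totals (members 7 and 10) and 5439 against 4051 with upper-quartile factors (members 7 and 11). Of the 7 ZnT genes tested, 4 were higher in basal cells and 0 in luminal cells, and of the 11 ZIP genes 6 and 2. On the copper route luminal cells had the higher level of 3 of 5 genes and basal cells of 1. The median log2 fold change, luminal against basal, was -0.85 for ZnT genes, -0.83 for ZIP genes and 0.91 for copper genes, beside 0.05 for all genes. With offsets for GC content and transcript length these medians were -0.33 for ZnT, -0.92 for ZIP and 0.97 for copper genes. For 15 members every library of one cell type lay above every library of the other, 4 with luminal and 11 with basal libraries on top. This held for 50.1% of all genes tested, 24.7% with luminal and 25.3% with basal libraries on top.

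**Figure D1:**
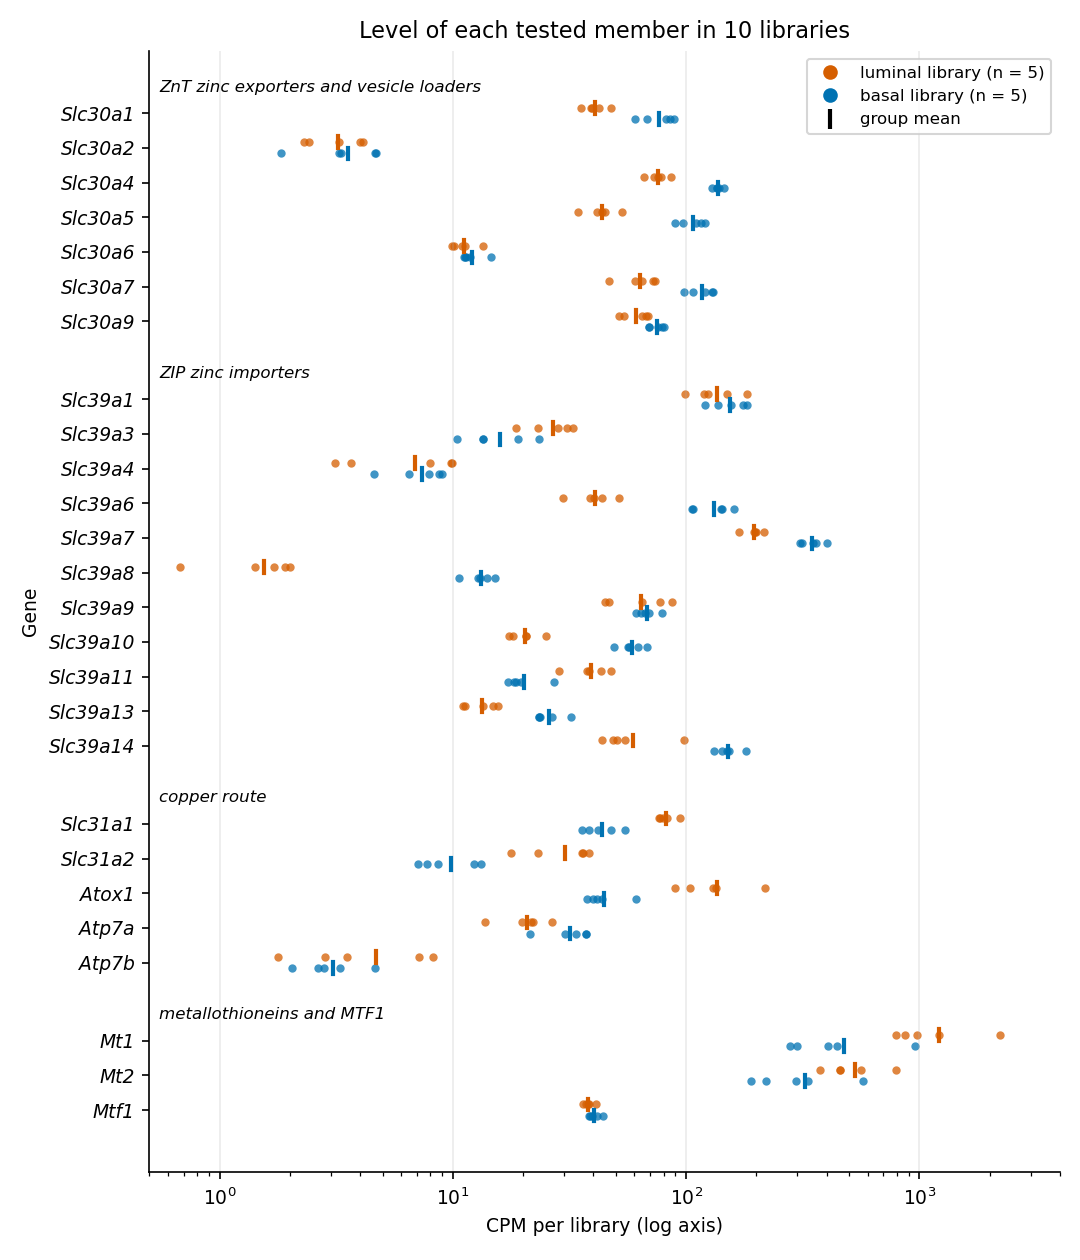
Level in CPM (log axis) of each of the 26 tested genes, by role, with 1 point per luminal (orange) or basal (blue) library and a bar at each group mean (n = 5 per group). Basal points lie to the right of all luminal points for 11 genes, among them Slc39a8 and Slc39a6, whereas Slc31a1, Slc31a2, Atox1 and Slc39a11 show the opposite order.

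The sizes of these differences depended on how transcript length was treated. Among all coding genes tested, the 562 with transcripts under 1000 bases had a median log2 fold change of 0.91, and 360 of them were called higher in luminal against 55 in basal cells. For the 1992 genes of 6000 bases or more the median was -0.35. Atox1 (541 bases), Mt2 (511 bases) and Mt1 are short, and Mtf1 (7631 bases) and Slc30a7 (9020 bases) are long. Values with offsets that remove the trend with GC content and length are therefore given beside a gene where they change its call or sign, or move a called value by over 1.5 times. The cause of this trend was not tested.

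**Figure D2:**
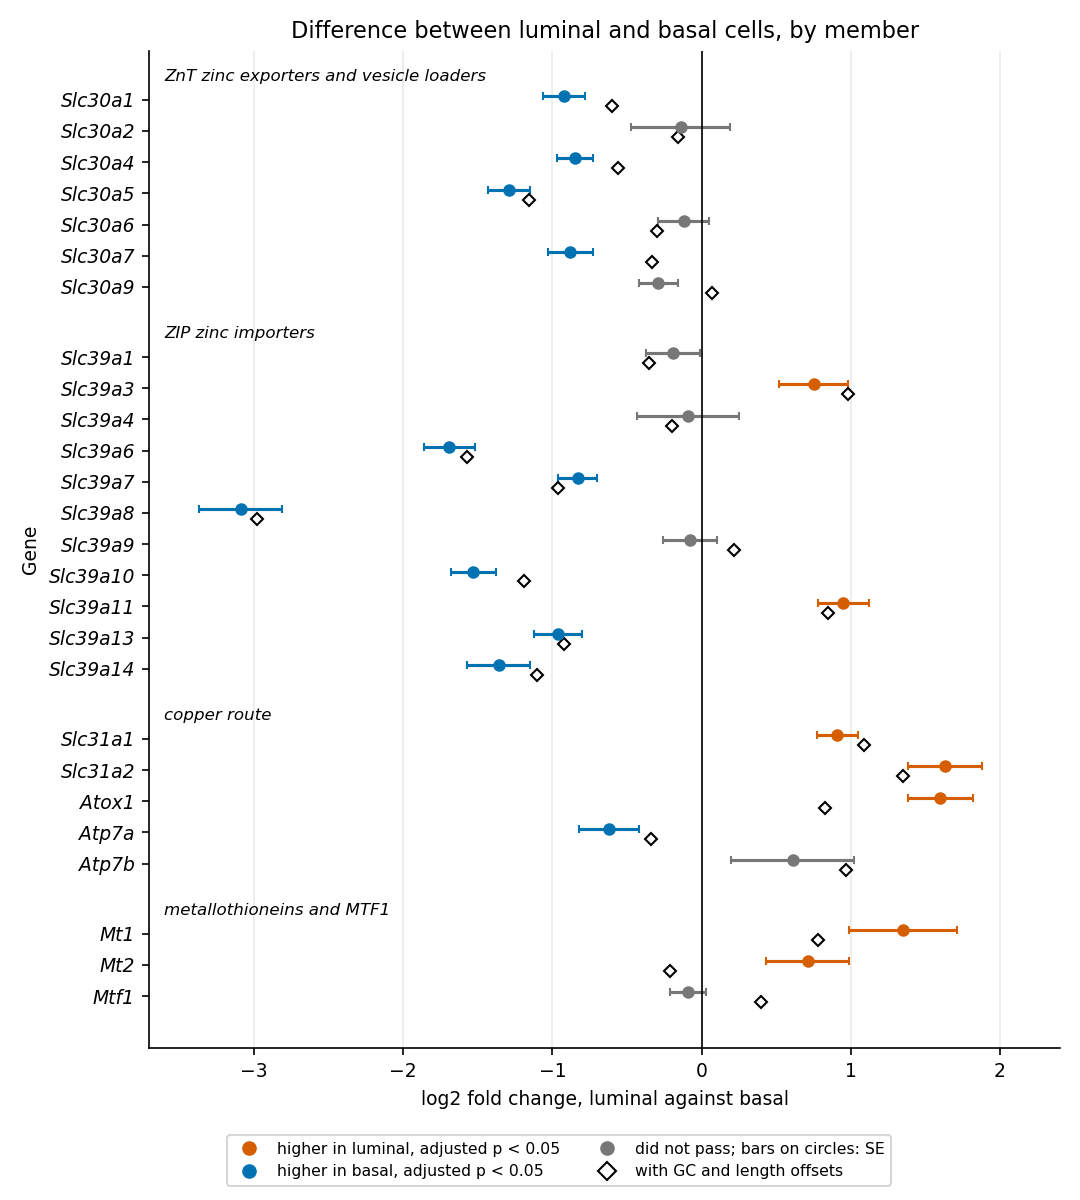
Log2 fold change, luminal against basal, of the 26 tested genes with its standard error (circles and bars, colored by direction where the edgeR adjusted p was under 0.05), and the same with offsets for GC content and transcript length (open diamonds). Most ZnT and ZIP genes lie left of zero on both scales, and Mt2 moves from 0.71 to -0.21.

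Zinc export from the cytosol was examined first. Slc30a1 (Entrez 22782, chr1:191906697-191913248) encodes ZnT1, the main exporter of the plasma membrane and itself a target of MTF1. It was at 39, 42.3, 35.4, 47.4 and 39.3 CPM in luminal libraries 1 to 5 and at 84.9, 81.9, 67.8, 60.1 and 89.1 CPM in basal libraries 1 to 5. Every basal library lay above every luminal one. This gave a log2 fold change of -0.92 (SE 0.14, edgeR adjusted p 6.63e-05), or of -0.60 (0.00179) with GC and length offsets.

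Slc30a4 (Entrez 22785, chr2:122681233-122702663) encodes ZnT4, the vesicle transporter whose loss in the lethal milk mouse deprives milk of zinc. Its level was 86.4, 66, 72.7, 76 and 78.3 CPM in luminal libraries and 135, 138, 146, 129 and 135 CPM in basal libraries. The groups did not overlap and basal libraries varied little, with a mean of 136 ± 6.23 CPM (SD, n = 5) against 75.9 ± 7.48 CPM. Basal cells thus held 1.80-fold the luminal level (log2 fold change -0.85, SE 0.12, edgeR adjusted p 1.82e-05). With GC and length offsets it was -0.56 (0.000561).

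Slc30a5 (Entrez 69048, chr13:100802645-100833480) showed the largest difference among the 7 ZnT genes tested. ZnT5 brings zinc into the early secretory pathway, where zinc enzymes such as alkaline phosphatase are assembled. It was at 53.3, 43.6, 41.5, 34.4 and 45 CPM in luminal and 121, 89.2, 97.4, 116 and 110 CPM in basal libraries, with no overlap. Its log2 fold change was -1.29 (SE 0.14, edgeR adjusted p 2.44e-06). Its partner Slc30a6, encoding ZnT6 of the ZnT5 and ZnT6 dimer, was at 11.1 ± 1.38 CPM in luminal and 12.1 ± 1.46 CPM in basal cells (SD, n = 5), and did not pass the test (-0.12, SE 0.17, edgeR adjusted p 0.559).

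Slc30a7, encoding the Golgi transporter ZnT7, was at 63.4 ± 10.7 CPM in luminal and 117 ± 14.2 CPM in basal cells (SD, n = 5; log2 fold change -0.88, edgeR adjusted p 0.000112). With GC and length offsets its difference was -0.33 (0.0375), and the replicate number added as a block gave -0.34 (0.0503). Slc30a9, which encodes a mitochondrial zinc transporter, did not overlap between groups, at 51.7 to 68.3 CPM in luminal and 69 to 80.2 CPM in basal libraries. Its log2 fold change of -0.29 did not pass the test (edgeR adjusted p 0.0573). It passed without luminal replicate 3 (-0.35, 0.0429) and under DESeq2 (-0.33, 0.0221), and GC and length offsets turned it to 0.07. Slc30a2, encoding ZnT2, whose mutation in nursing mothers lowers milk zinc, was low in both groups, at 3.22 ± 0.86 and 3.54 ± 1.17 CPM (SD, n = 5; -0.14, edgeR adjusted p 0.731).

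The 3 ZnT genes below the filter are known from other tissues. Slc30a3, which loads zinc into synaptic vesicles, had 11 counts over the 5 luminal and 91 over the 5 basal libraries, or means of 0.125 and 1.26 CPM. Slc30a8 of insulin granules had 0 and 1 count, and Slc30a10, a manganese exporter, had 0 counts in luminal libraries and 6 in basal libraries, all in replicate 1.

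The ZIP genes included the largest difference among the 26 genes tested. Slc39a8 (Entrez 67547, chr3:135816882-135888572) encodes ZIP8, which also carries manganese, iron and cadmium. It was at 2, 1.42, 0.675, 1.91 and 1.71 CPM in luminal and 12.8, 10.6, 15.2, 14 and 13.1 CPM in basal libraries. The lowest basal library stood far above the highest luminal one. Basal cells held 8.51-fold the luminal level (log2 fold change -3.09, SE 0.28, edgeR adjusted p 3.04e-07).

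Slc39a14 (Entrez 213053, chr14:70303467-70351452), its closest relative and likewise a carrier of iron and manganese, was also higher in basal cells. Values were 98, 50.5, 54.5, 43.4 and 48.5 CPM in luminal and 181, 153, 143, 132 and 149 CPM in basal libraries. Luminal replicate 1 stood above the other luminal libraries, and still below every basal one. The log2 fold change was -1.36 (SE 0.21, edgeR adjusted p 4.56e-05), and the leave-one-out and other alternatives ran from -1.61 to -1.10.

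Slc39a6 and Slc39a10 encode ZIP6 and ZIP10, which join into one complex at the plasma membrane, and ZIP6 is known as LIV-1, the product of an estrogen-induced gene of breast cancer cells. Slc39a6 (Entrez 106957, chr18:24579881-24603817) was at 51.6, 43.5, 38.7, 29.7 and 40.1 CPM in luminal and 106, 142, 160, 141 and 107 CPM in basal libraries, a log2 fold change of -1.69 (SE 0.17, edgeR adjusted p 9.18e-07). Basal cells held 3.22-fold the luminal level of this estrogen-responsive gene, and the hormone receptor genes Esr1 and Pgr were among the markers higher in luminal cells. Slc39a10 (Entrez 227059, chr1:46807544-46925776) was at 18.1, 17.4, 25, 20.5 and 20.5 CPM in luminal and 67.9, 57, 56.4, 49.2 and 62.3 CPM in basal libraries. Both partners separated the groups without overlap, and the log2 fold change of Slc39a10 was -1.53 (SE 0.15, edgeR adjusted p 5.22e-07).

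Transporters of internal membranes were also higher in basal cells for 2 genes. Slc39a7, encoding ZIP7, which releases zinc from the endoplasmic reticulum, was at 195 ± 17.1 CPM in luminal and 346 ± 37.7 CPM in basal cells (SD, n = 5; log2 fold change -0.83, edgeR adjusted p 7.17e-05). Of its exon bases, 80.7% are shared with the same-strand transcript Gm20427, so counts of the pair are uncertain. Slc39a13, encoding the vesicle transporter ZIP13, was at 13.3 ± 2.02 and 25.8 ± 3.72 CPM (SD, n = 5; -0.96, edgeR adjusted p 0.00013).

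The other 2 called ZIP genes were higher in luminal cells. Slc39a11, encoding ZIP11 of the Golgi and nucleus, was at 39 ± 7.01 CPM in luminal and 20.2 ± 3.96 CPM in basal cells (SD, n = 5), with a log2 fold change of 0.95 (SE 0.17, edgeR adjusted p 0.000247). The lowest luminal library (28.6 CPM) and the highest basal library (27.1 CPM) nearly met, and both carried the number 4. Slc39a3, encoding the surface importer ZIP3, was at 26.7 ± 5.84 and 15.9 ± 5.15 CPM, and its groups overlapped (0.75, SE 0.23, edgeR adjusted p 0.00992).

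No difference passed the test for Slc39a1, Slc39a4 and Slc39a9. Slc39a4, encoding the intestinal zinc importer ZIP4, was at 9.88, 7.95, 3.13, 3.66 and 9.77 CPM in luminal and 4.61, 7.91, 8.74, 9 and 6.47 CPM in basal libraries. The luminal values ranged more widely than the basal ones and enclosed them (log2 fold change -0.09, SE 0.34, edgeR adjusted p 0.827). Slc39a1, for the widespread surface importer ZIP1, was at 135 ± 32.5 and 154 ± 25.5 CPM, and Slc39a9, for ZIP9 of the Golgi, at 64.1 ± 18.5 and 67.9 ± 6.92 CPM (SD, n = 5), with a log2 fold change of -0.08 that was 0.22 with GC and length offsets and turned positive without luminal replicate 2 (0.03) or 4 (0.02). That of Slc39a4 turned positive without luminal replicate 3 (0.08) or 4 (0.06). Summed over 5 libraries, Slc39a2 had 31 luminal and 45 basal counts, Slc39a5 had 10 and 18, and Slc39a12 had 15 and 27.

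Transcripts of the copper uptake and hand-over genes Slc31a1, Slc31a2 and Atox1 showed the reverse order, and transport itself was not measured. Slc31a1 (Entrez 20529, chr4:62360583-62391769) encodes the importer CTR1. It was at 79.7, 94.5, 76.9, 82.4 and 76.4 CPM in luminal and 41.8, 47.8, 54.5, 38.3 and 35.7 CPM in basal libraries. With no overlap between groups, it differed by a log2 fold change of 0.91 (SE 0.14, edgeR adjusted p 6.07e-05). Slc31a2 (Entrez 20530, chr4:62280393-62298412), whose product CTR2 acts on CTR1 and on copper stores in endosomes, was at 36, 23.1, 35.6, 17.7 and 38.4 CPM in luminal and 7.73, 8.6, 13.2, 7.06 and 12.3 CPM in basal libraries. Libraries numbered 4 were the lowest of both groups, and the groups remained apart (1.63, SE 0.25, edgeR adjusted p 5.45e-05).

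Atox1 (Entrez 11927, chr11:55446637-55461208) encodes the copper chaperone that feeds the pumps. Its level was 89.8, 131, 104, 217 and 134 CPM in luminal and 39.8, 37.6, 43.4, 60.7 and 41.5 CPM in basal libraries. The library numbered 4 was the highest of each group, and no basal library reached the luminal range. The log2 fold change was 1.60 (SE 0.22, edgeR adjusted p 2.19e-05), and with GC and length offsets it was 0.83 (0.00035).

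The pumps were examined next. Atp7a (Entrez 11977, chrX:106027224-106128161), the gene of Menkes disease, was at 26.6, 22, 21.7, 13.7 and 19.7 CPM in luminal and 33.7, 37.2, 37.2, 21.4 and 30.1 CPM in basal libraries. Its groups overlapped because the basal library numbered 4 was low, as was its luminal counterpart. It was higher in basal cells (log2 fold change -0.62, SE 0.20, edgeR adjusted p 0.013), and this did not pass with GC and length offsets (-0.34, 0.107) or with library totals (-0.42, 0.0888). With the replicate number as a block it was -0.63 (0.00328), and offsets and block together gave -0.35, which passed (0.0457). Atp7b (Entrez 11979, chr8:21992783-22060074), the gene of Wilson disease and of the toxic milk mouse, was at 3.5, 7.16, 8.22, 2.83 and 1.78 CPM in luminal and 2.81, 3.27, 2.63, 4.63 and 2.04 CPM in basal libraries. Luminal replicates 2 and 3 exceeded all other libraries, and the difference did not pass the test (0.61, SE 0.41, edgeR adjusted p 0.206), and it ran from 0.29 without luminal replicate 3 to 0.99 with length offsets (0.0512).

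Metallothioneins were the most abundant transcripts of the set per length. Per kilobase of the longest annotated transcript, Mt1 was at 1119 ± 539 CPM in luminal and 439 ± 256 CPM in basal cells, and Mt2 at 1036 ± 316 and 631 ± 295 CPM (SD, n = 5). Atox1 followed in luminal cells, at 250 CPM per kilobase, and Slc39a7 in basal cells, at 142 CPM per kilobase. In basal cells the order of Mt1 and Mt2 depends on the transcript taken, since the coding transcript Mt1-201 has 549 bases and the longest one 1085. The length taken cannot change the order of luminal and basal cells for Mt1, because both groups are divided by the same length. At 549 bases Mt1 would stand at 2211 and 868 CPM per kilobase.

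Mt1 (Entrez 17748, chr8:94178883-94180327) was at 794, 1209, 980, 2221 and 866 CPM in luminal and 278, 407, 442, 957 and 298 CPM in basal libraries. Number 4 was the highest library of each group, and basal replicate 4 lay within the luminal range, whereas the other 4 basal libraries lay below every luminal one. The log2 fold change was 1.35 (SE 0.36, edgeR adjusted p 0.00436), and 1.43 (4.1e-05) without both libraries numbered 4. It was 1.01 (0.0113) without luminal replicate 4 alone and 1.76 (0.00021) without basal replicate 4 alone. With GC and length offsets it was 0.78 (0.0315) at the length of 1085 bases and 0.51 (0.118) at 549 bases. In these fits without a block, whether Mt1 passed the test turned on the transcript to which its reads are assigned. The replicate number as a block gave 1.40 (2.21e-05), and 0.82 (0.000506) with offsets at 1085 bases. At each of the 5 numbers the luminal library exceeded the basal one, and no blocked fit was run at 549 bases.

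Mt2 (Entrez 17750, chr8:94172618-94173567), which lies next to Mt1, was at 374, 563, 457, 793 and 459 CPM in luminal and 190, 296, 333, 572 and 221 CPM in basal libraries. The pattern over libraries was that of Mt1, with number 4 the highest of each group. The log2 fold change was 0.71 (SE 0.28, edgeR adjusted p 0.0384). It was 0.83 (0.00233) without both libraries numbered 4. The call was lost without luminal replicate 2 or 4 or basal replicate 1, 2, 3 or 5 (log2 fold change 0.52 to 0.74, edgeR adjusted p 0.0546 to 0.105). With the replicate number as a block it was 0.78 (0.00126), and at each of the 5 numbers the luminal library exceeded the basal one. The sign changed with GC and length offsets (-0.21, 0.394). The antisense transcript Gm45774 covers 73.5% of the exon bases of Mt2, and the strand setting of the counting is not given in the sources used here.

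**Figure D3:**
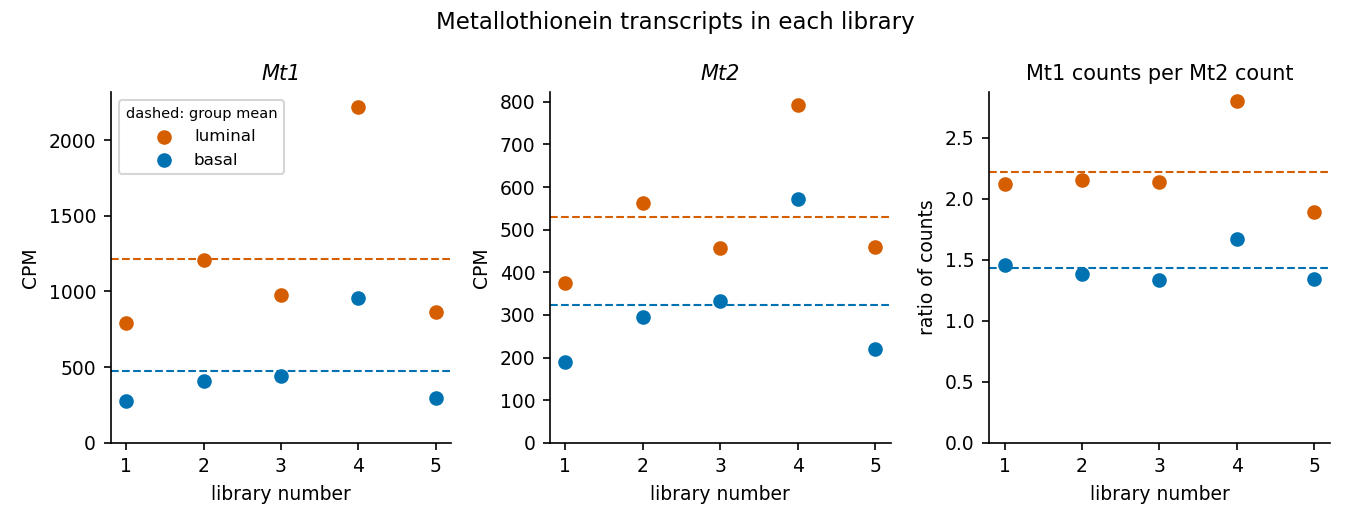
Mt1 and Mt2 in CPM and the ratio of Mt1 to Mt2 counts, against the library number, for luminal (orange) and basal (blue) libraries, with dashed lines at the group means. The library numbered 4 is the highest of its own group in all panels, and the ratio of every luminal library (1.89 to 2.8) exceeds that of every basal library (1.33 to 1.67).

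The ratio of both genes was examined after their values had been seen and is given as a description, with no test. Counts of Mt1 per count of Mt2 were 2.12, 2.15, 2.14, 2.8 and 1.89 in luminal libraries and 1.46, 1.38, 1.33, 1.67 and 1.34 in basal libraries. The groups did not overlap, at 2.22 ± 0.343 and 1.44 ± 0.142 (SD, n = 5), and without the libraries numbered 4 the means were 2.07 and 1.38. Mt1 and Mt2 together took 0.184% ± 0.0694 of luminal and 0.075% ± 0.0406 of basal counts (SD, n = 5).

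Mt4, a metallothionein of stratified squamous epithelium, was counted in both libraries numbered 4 and in no other library, at 1.15 CPM (luminal) and 1.81 CPM (basal), or 15 and 29 counts. The epidermal keratin genes Krt1, Krt10 and Krt77 were highest of each group in the same libraries. Other epidermal genes did not all follow this. Luminal replicate 5, without Mt4 counts, came near luminal replicate 4 for Krt1 (5.01 against 6.18 CPM) and exceeded it for Krtdap (2.6 against 2.06 CPM). Krt2 had at most 1 count in any library, and Lor was higher in basal replicate 5 (2.58 CPM) than in basal replicate 4 (0.375 CPM). Krt10 was at 247 CPM in basal replicate 4 against 2.32 to 10.1 CPM in the other basal libraries, and luminal replicate 4 held 35.9 CPM where its group otherwise ran from 2.13 to 16 CPM. The part of epidermal RNA in the values of Mt1 and Mt2 was not tested. Mt3, known from brain, had 16 counts over the luminal and 4 over the basal libraries.

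Mtf1 (Entrez 17764, chr4:124802549-124849800), encoding the zinc sensor itself, was at 40.9, 38, 36.2, 38.3 and 37.2 CPM in luminal and 44.1, 38.5, 39.5, 38.6 and 41.5 CPM in basal libraries. The 10 values lay close together and the groups overlapped (log2 fold change -0.09, SE 0.12, edgeR adjusted p 0.535). With GC and length offsets the value was 0.40 (0.00862), and its sign also turned with upper-quartile factors (0.04) and library totals (0.10), 2 scalings that move the median over all genes by 0.12 and 0.19.

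**Figure D4:**
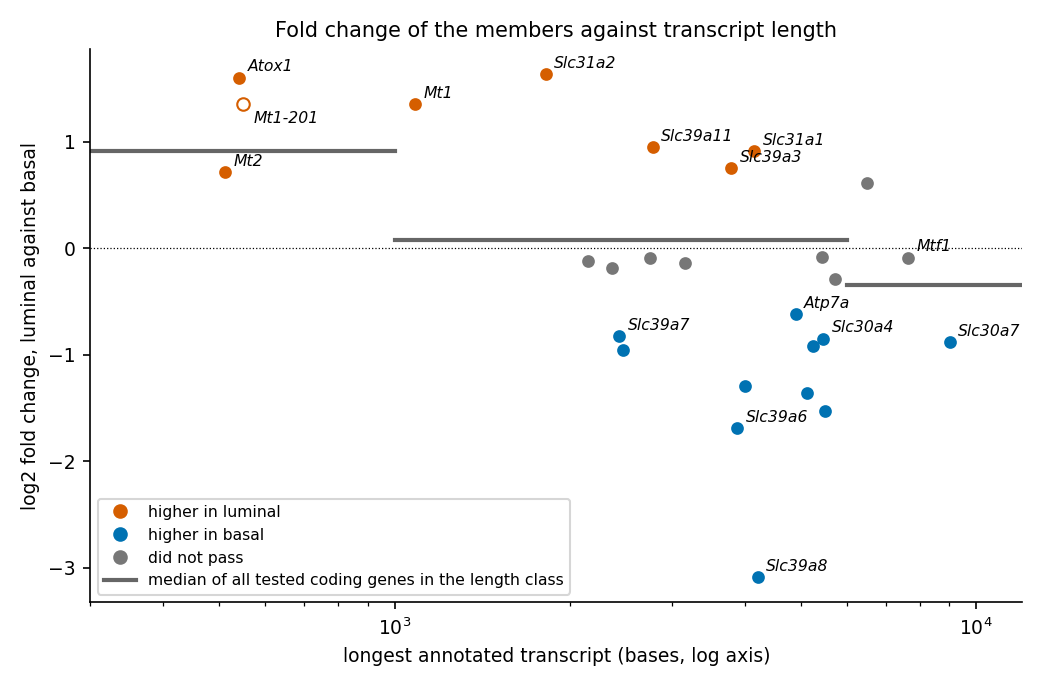
Log2 fold change, luminal against basal, of the 26 tested genes against the length of their longest annotated transcript in bases (log axis), with Mt1 drawn also at its 549-base transcript Mt1-201 (open circle). Black lines mark the median of all tested coding genes in 3 length classes (0.91, 0.08 and -0.35), and Mt2 lies below the line of its class whereas Mt1 and Atox1 lie above theirs.

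Other genes of the same metals were examined from lists written from general knowledge, with earlier results of these data known. This holds also for the zinc, iron, glucocorticoid and stress lists below, so the shares called are descriptions. Of 26 tested genes of copper handling and copper enzymes, 76.9% were called, against 64.8% of all genes tested. Luminal cells had the higher level of 9 of them and basal cells of 11 (median log2 fold change -0.01). Those highest in luminal cells included Fdx1 (2.29), a mitochondrial ferredoxin, Cox17 (1.90), the copper chaperone of cytochrome c oxidase, and Steap4 (1.59), a metalloreductase. For Cox17 the library numbered 4 was the highest of each group (131 CPM luminal, 28.3 CPM basal). Without luminal replicate 4 the log2 fold change of Cox17 was 1.53. Its GC and length offsets used the longest annotated transcript, of 3690 bases (2.01), and no other length was tried. Those highest in basal cells were Moxd1 (-8.66), a monooxygenase of the endoplasmic reticulum, Aoc3 (-7.22), an amine oxidase of the cell surface, and Loxl3 (-3.68), a lysyl oxidase. The copper enzymes Pam (1.07), Heph (0.74) and Cp (0.63) were higher in luminal cells. Aoc1, a secreted amine oxidase left out by the filter, was at 67.4, 0.421, 10.6, 13 and 23.8 CPM in luminal libraries and had 0 counts in every basal one. These 4 genes fall outside the rule for named genes, were chosen after their values were seen and all had the higher level in luminal cells. Other copper enzymes of the list, Lox (-2.36) and Loxl2 (-1.05), were higher in basal cells, at basal means of 7.55 and 5.82 CPM.

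Among 16 tested genes of zinc handling and secretory zinc enzymes, 93.8% were called, against 64.8% of all genes tested. Luminal cells had the higher level of 6 of them and basal cells of 9 (median -0.69). The carbonic anhydrases Car9 (log2 fold change -5.58) and Car12 (-3.63) and the phosphodiesterase Enpp1 (-5.43) were much higher in basal cells, and Car9 stood at 7.07 ± 1.36 CPM in luminal and 337 ± 43.7 CPM in basal cells (SD, n = 5). Another carbonic anhydrase gene, Car2, chosen after its values were seen, went the other way at a low level, with 3.17 ± 1.19 CPM in luminal and 0.0395 ± 0.0561 CPM in basal cells (SD, n = 5; edgeR adjusted p 3.74e-06). In luminal cells the related ectoenzyme Enpp3 (4.72), the vesicular zinc transporter Tmem163 (2.97) and Ggh (2.35) were higher. Ggh encodes a lysosomal cysteine peptidase, not a zinc enzyme, and is counted because it was on the list as written. Among luminal libraries, Tmem163 ran from 12.1 to 19.1 CPM apart from replicate 1, which reached 51.2 CPM.

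Iron and manganese share carriers with zinc. Here 60.0% of 15 tested genes were called, near the 64.8% of all genes tested. Luminal cells had the higher level of 3 of them and basal cells of 6 (median -0.28). Slc40a1 (log2 fold change 2.96), encoding the iron exporter ferroportin, and the Golgi manganese and calcium pumps Atp2c1 (1.15) and Atp2c2 (0.95) were higher in luminal cells. The ferritin gene Fth1 (-1.39), the transferrin receptor gene Tfrc (-1.14, not called without basal replicate 1, edgeR adjusted p 0.0507, or with length offsets alone, 0.08) and the Golgi manganese transporter gene Tmem165 (-1.41) were higher in basal cells.

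Metallothionein genes are also known to answer glucocorticoid and stress. Of 9 glucocorticoid-responsive genes, 77.8% were called, against 64.8% of all genes tested. Luminal cells had the higher level of 3 of them and basal cells of 4 (median -0.36). Zbtb16 (log2 fold change 3.19), Fkbp5 (2.87) and Tsc22d3 (1.73), all induced by the glucocorticoid receptor, were higher in luminal cells, and Errfi1 (-2.40), Ddit4 (-2.26) and the receptor gene Nr3c1 (-1.28) were higher in basal cells. Of 15 genes of the response to dissociation and oxidative stress, 93.3% were called, against 64.8% of all genes tested. The higher level was in luminal cells for 2 of them and in basal cells for 12 (median -1.05). Those 2 were the heat shock genes Hspa1a (1.20) and Hspa1b (1.17), near-identical copies whose counts are uncertain, whereas Srxn1 (-2.73), Slc7a11 (-2.19) and Dusp1 (-2.07) led the basal side. The part of these responses in the levels of Mt1 and Mt2 was not tested.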

How the data were processed

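Sorted luminal and basal cells of wild type mice were measured by RNA-seq, with 5 libraries each. The authors deposited raw counts per gene, with 1 column per library. The submitters' processing notes name cutadapt 4.2, Bowtie2 2.3.5.1 and the mouse assembly mm10. The study's methods describe poly(A) selection and single-end reads. The counting tool and its annotation and strand setting are not given in the sources used here, and Bowtie2 does not align across splice junctions. Entrez identifiers were named through RefSeq (GRCm38.p6), which matched 24570 of 24594.

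Genes were filtered with filterByExpr (minimum count 10, minimum total 15), which left 14609 tested. Totals were scaled by TMM, and luminal was compared with basal by edgeR 4.0.16 (quasi-likelihood, R 4.3.3) with Benjamini-Hochberg adjustment over all genes tested. The standard error (SE) was obtained as the fold change on the log2 scale over the square root of F. Totals ran from 13203146 to 17998165 counts, and precision beyond counting error comes from the spread of 5 libraries. CPM uses TMM-scaled totals. Transcript lengths are those of GENCODE M21.

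Members and lists were chosen with earlier results of these data known, and the epidermal list after the values were seen. Values in every library are given for members with an adjusted p under 0.05, a log2 fold change of at least 1 in size and a mean of 10 CPM or more in either cell type, and for Mt1, Mt2, Mtf1, Atox1, Slc30a1, Slc30a4, Slc39a4, Slc31a1, Atp7a and Atp7b. From each other list the 3 genes furthest in each direction past the threshold, with at least 10 CPM, are named. On data simulated from these libraries, with 200 of 14609 genes changed, edgeR recovered 44 of 73 changes of 2-fold and 59 of 63 of 4-fold, with 9 false calls. In these libraries 64.8% of genes tested were called, and the simulation held no trend with length, so its rates need not hold here. Alternatives were DESeq2 1.42.0, limma 3.58.1 (voom), other scalings and filters, GC and length offsets, the replicate number as a block and leaving out each library.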

Additional observations from a re-analysis of the deposited data

Results flagged for a closer look

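Of 123 groups of 5 libraries tested for a single distant library (3 more had too few counts), 13 held one by Dixon's test. Chance alone would give 1 in 20, or 6.15, for independent groups. These groups are not independent, since the same libraries recur across genes. Where all other libraries are at 0, as for Mt3, Mt4 and Slc30a10, any counted library is distant. No excess over chance is therefore read from these numbers. Basal replicate 4 was the distant library for Slc30a6 (14.6 CPM against 11.2 to 11.8), Slc39a11 (27.1 against 17.3 to 19.6), Atox1 (60.7 against 37.6 to 43.4), Mt1 (957 against 278 to 442), Mt3 (0.25 against 0), Mt4 (1.81 against 0), Ggh (6.75 against 3.68 to 4.57) and Zbtb16 (8.75 against 5.3 to 6.17). Mt4 was also at 1.15 CPM in luminal replicate 4, against 0 in the other luminal libraries. Luminal replicate 1 was distant for Slc39a14 (98 CPM against 43.4 to 54.5) and for Tmem163 (51.2 against 12.1 to 19.1), luminal replicate 2 for Dusp1 (135 against 86.6 to 100), and basal replicate 1 for Slc30a10 (0.374 against 0).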

How the results depend on the processing

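Over the alternatives run for the 26 tested members, 555 of 599 values kept direction and side of the threshold, 12 kept direction but no longer passed, 4 kept direction and newly passed, and 28 turned sign. Of those 28, 3 of Mtf1 newly passed and 3 of Mt2 no longer passed. The members higher in luminal and basal cells numbered 6 to 7 and 10 to 13 (6 to 7 and 11 to 12 when 1 library was left out). Sign turned for Slc30a2 (0.06 with library totals, 0.08 without both libraries numbered 4), Slc30a6 (0.004 with upper-quartile factors, 0.06 with totals), Slc30a9 (0.07 with GC and length offsets, 0.06 with the block added, 0.05 with length alone) and Slc39a1 (0.001 with totals). It turned for Slc39a4 (0.02 with upper-quartile factors, 0.09 with totals, 0.14 without both libraries numbered 4, 0.06 and 0.08 without luminal replicate 4 or 3, in a leave-one-out range of -0.25 to 0.08) and Slc39a9 (0.04, 0.11, 0.22 and, with the block added, 0.19 under GC and length offsets, 0.22 with length alone, 0.02 and 0.03 without luminal replicate 4 or 2, in a leave-one-out range of -0.20 to 0.03). Mt2 turned to -0.21, -0.15 (block) and -0.12 (length alone), and Mtf1 to 0.40, 0.40 and 0.39, and to 0.04 and 0.10 with upper-quartile factors and totals. The cause was not tested. At stricter limits (adjusted p under 1e-04, at least 2-fold), luminal cells were the higher side for 2 members and 1810 of all genes, and basal cells for 5 and 1979. With at least 10 counts in every library, 7 copper-list genes were higher in basal cells. A luminal and a basal library of the same number also begin their descriptions with one identifier, whose meaning (an animal, for example) the labels do not give. The deviations of such pairs correlated with a mean r of 0.0369 (-0.105 to 0.169, 2 of 5 above 0.1), and 3 of 10 libraries correlated best with their own number. With the replicate number as a block all 18 member calls were kept, and Slc30a7 with offsets and block was at -0.34 (edgeR adjusted p 0.0503).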
